A study of Schizosaccharomyces pombe with 2 samples.

Results

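Cnd2 binding was examined at 10 fission yeast (Schizosaccharomyces pombe) genes of the mitotic spindle and of mitotic control: the kinesins klp5, klp6 and klp8, the gamma-tubulin complex gene alp16, the spindle pole gene sad1, the kinetochore gene ask1, the kinases plo1 and fin1, the anaphase activator slp1 and the transcription factor fkh2. They are 10 of 5113 protein-coding genes annotated on the 3 chromosomes. The genes were grouped by function with the peaks of this data set already known, so the number that carry a peak is a description and not a test. A gene counted as near a peak when the peak's summit, its highest point, lay inside the gene or within 500 bp of it. By this rule 5 genes had a peak (klp5, alp16, sad1, slp1 and klp8) and 5 had none (klp6, ask1, plo1, fin1 and fkh2).

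Cnd2 is the kleisin subunit of condensin, the ring complex that compacts chromosomes in mitosis. Chromatin of strain YUK421, in which Cnd2 carries an HA tag, was pulled down with an anti-HA antibody and sequenced (Cnd2 ChIP), and the same chromatin without the pull-down was sequenced as the input, with 1 library each. All cells were held in mitosis with 5 µg/mL thiamine, in medium with glutamate, and fixed with 0.5% formaldehyde for 30 min at 25 °C. The ChIP library had 25933013 fragments after removal of duplicates and the input 54272630. There is no replicate, untagged strain or cell population outside mitosis here, so no value has a replicate check, no p-value is given, and intervals cover counting error only. The study asked which parts of the mitotic genome hold condensin.

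The spindle is built of microtubules that start from gamma-tubulin complexes at the spindle pole bodies, which sit in the nuclear envelope. Kinesins move along or shorten these microtubules, and the DASH complex holds their ends at the kinetochores of the chromosomes. Polo kinase and the NIMA-like kinase Fin1 drive steps of mitosis, Slp1 (Cdc20 in other organisms) switches on the anaphase-promoting complex, and the forkhead factor Fkh2 controls a wave of genes transcribed in mitosis. Thiamine turns off genes placed under an nmt promoter. Which gene was under such a promoter in these cells is not given in the sources used here. Shutting off slp1 in this way is a common means of arrest in this yeast, so the DNA upstream of slp1 may differ from the reference in this strain, which was not tested.

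The 2 strongest peaks of the group lay where genes run towards each other and end together, and the peak of slp1 lay before the start of the gene. Sequences of 3 such places are shown because the summits are described by their distance from the gene ends in them. They are read from the RefSeq genome at the annotated gene ends, in build ASM294v3, and the summits are placed in them by distance only. In the first (II:1708895-1709194, plus strand) the capitals mark the 136 bp between the end of gua1, on the left, and the end of klp5, on the right, and the summit falls at base 209. In the second (III:432165-432464, plus strand) they mark the 7 bp shared by the ends of SPCC306.11, on the left, and alp16, and the summit falls at base 224. In the third (I:997616-997915, minus strand, so that slp1 reads left to right) they mark a forkhead motif at the annotated start of slp1, and the summit falls at base 28.
gua1 and klp5 ends: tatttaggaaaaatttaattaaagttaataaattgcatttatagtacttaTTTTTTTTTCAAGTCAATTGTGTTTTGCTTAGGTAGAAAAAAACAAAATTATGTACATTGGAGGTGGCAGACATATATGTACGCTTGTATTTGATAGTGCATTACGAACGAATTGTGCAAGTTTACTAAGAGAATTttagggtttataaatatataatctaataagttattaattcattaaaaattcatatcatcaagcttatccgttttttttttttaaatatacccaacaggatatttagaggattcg
SPCC306.11 and alp16 ends: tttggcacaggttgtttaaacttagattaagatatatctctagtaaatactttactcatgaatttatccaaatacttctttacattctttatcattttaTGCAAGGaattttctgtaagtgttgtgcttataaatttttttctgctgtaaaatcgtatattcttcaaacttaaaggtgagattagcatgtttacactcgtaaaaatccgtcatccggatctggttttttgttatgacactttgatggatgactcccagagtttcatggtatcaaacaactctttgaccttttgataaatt
slp1 start: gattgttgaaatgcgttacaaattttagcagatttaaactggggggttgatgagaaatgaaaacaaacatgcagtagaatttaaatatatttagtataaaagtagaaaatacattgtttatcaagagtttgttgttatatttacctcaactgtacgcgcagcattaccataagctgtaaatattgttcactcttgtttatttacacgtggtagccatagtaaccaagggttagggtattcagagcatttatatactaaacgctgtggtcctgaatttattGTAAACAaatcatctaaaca

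Of the 3 kinesin genes, klp5 carried a strong Cnd2 peak, klp8 a marginal one and klp6 none. Klp5 and Klp6 are kinesin-8 motors that work as a pair and shorten microtubules at their plus ends. At the klp5 summit 3457 ChIP fragments were piled up (95% counting interval 3343 to 3574), against a local background of 386 scaled input fragments. This is a fold enrichment of 8.93 (8.64 to 9.24), the authors' value for the ratio of ChIP to background, and rank 14 of the 664 peaks on the chromosomes. The peak (II, 1707492 to 1710590, authors' build ASM294v2) is 3099 bp wide.

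The klp5 summit lay 22 bp inside the 3′ end of klp5, so that 99.2% of the gene had been passed from its start. It was 159 bp past the 3′ end of the convergent gene gua1, which encodes IMP dehydrogenase, an enzyme of GTP synthesis. The peak spread almost evenly over both genes, with 1510 bp over klp5 and 1453 bp over gua1. The non-coding RNA gene SPNCRNA.5314 began 101 bp from the summit, inside klp5 on the other strand. By distance the nearest end was that of klp5, but neither the summit nor the width assigns the peak to klp5 rather than gua1. A separate 1.61-fold peak lay 2296 bp past the 3′ end of klp5, near the start of gua1.

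The partner gene klp6 had no summit within 500 bp. The closest was 3751 bp past its 3′ end, inside the eisosome gene fhn1, at 1.35-fold. Downstream of klp6 lies vid27, which is read in the same direction and starts a gap of 140 bp away, whereas klp5 meets a convergent gene. The highest peak within 10 kb of klp6 was 1.85-fold, 5568 bp before its 5′ end and next to the spindle pole gene cut12.

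At klp8, which encodes a kinesin-like protein, the summit had 424 ChIP fragments (385 to 466) against a background of 337, a fold of 1.26 (1.14 to 1.38). It ranked 586 of 664 and was 289 bp wide (I, 4682914 to 4683202). The summit lay 206 bp inside the 3′ end of klp8. The same bases belong to cog1, a Golgi transport gene that overlaps klp8 by 1775 bp on the other strand, so the position does not separate the genes. Its pileup was below the genome mean of 429 fragments, and with that mean as the lowest background allowed the fold was 0.988 and the peak no longer passed the weakest p of the list.

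**Figure D1:**
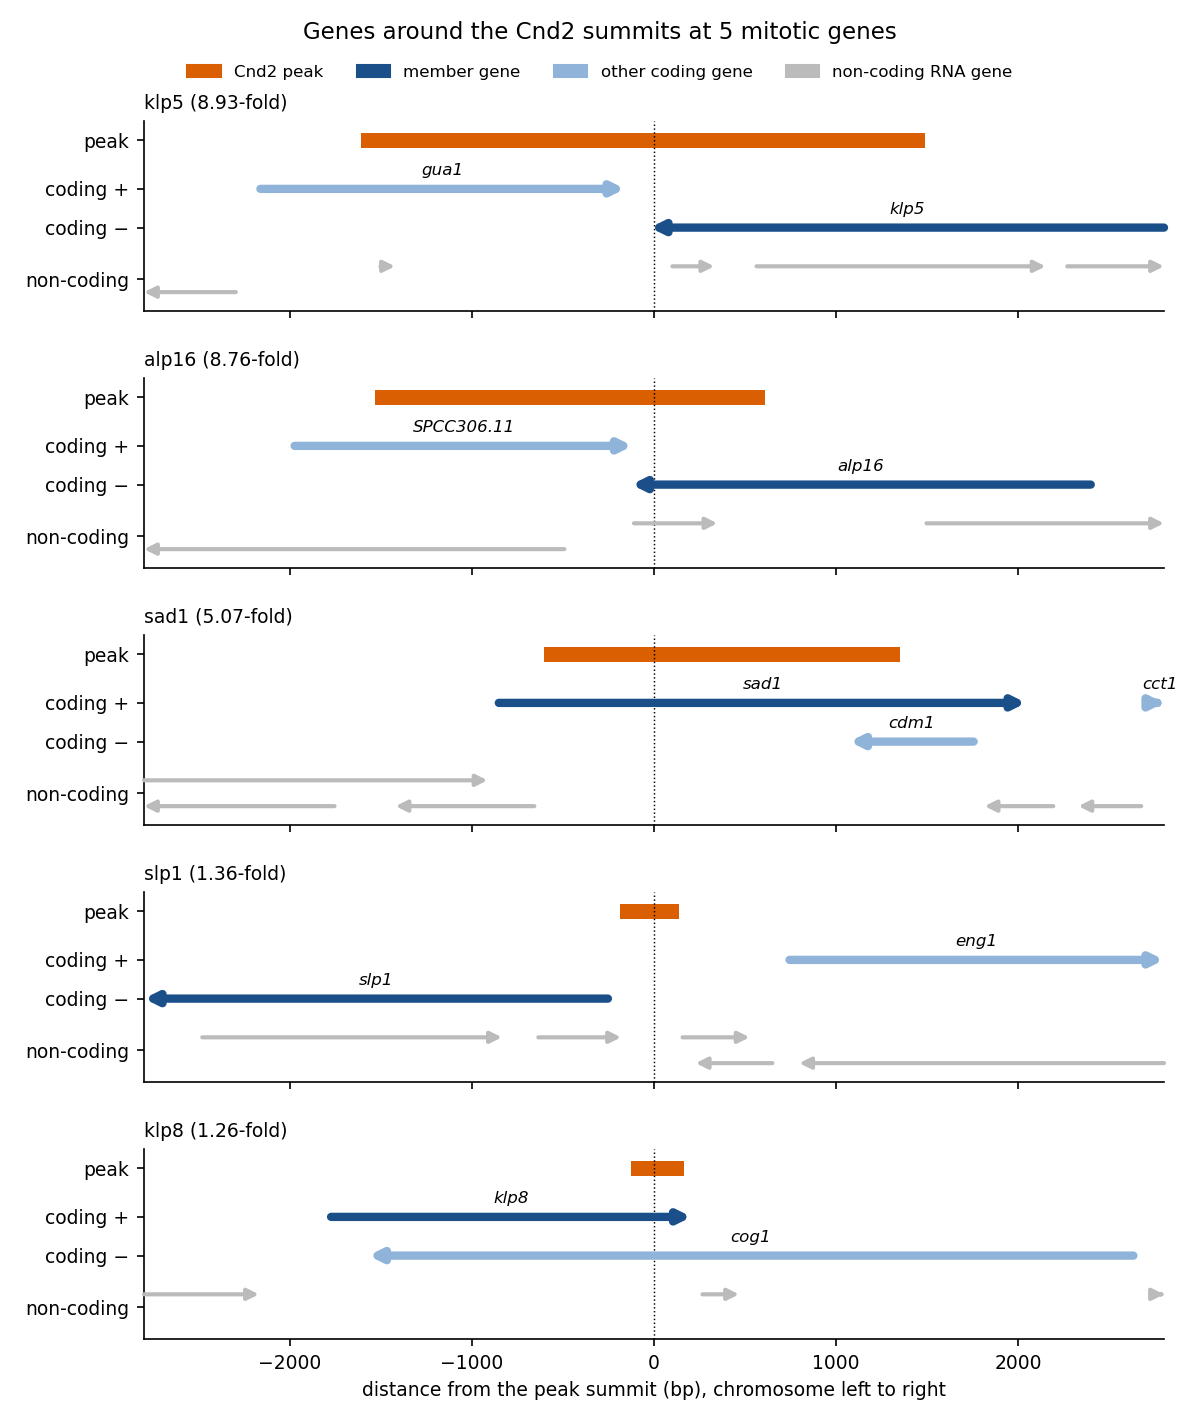
Genes around the Cnd2 summits of the 5 genes with a peak, with distance from the summit in bp on the horizontal axis and strongest peak on top. Orange bars are peaks, dark blue arrows the named gene, light blue arrows other coding genes and grey arrows non-coding RNA genes, drawn on separate rows by strand and cut at the edge of the panel. The klp5 and alp16 summits sit where 2 coding genes meet at their 3′ ends, the sad1 summit sits within the gene, and the slp1 summit lies between slp1 and eng1.

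The gamma-tubulin complex gene alp16 and the spindle pole gene sad1 also had strong peaks. Alp16 is the GCP6 subunit of the complex from which microtubules grow. Its summit had 4350 ChIP fragments (4222 to 4481) against a background of 495, a fold of 8.76 (8.51 to 9.03) and rank 15 of 664. Its pileup was the highest of the 5 genes, though its fold came after that of klp5 because the background was higher. The fold intervals of klp5 and alp16 overlapped.

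The alp16 peak (III, 430857 to 433000) is 2144 bp wide. The summit lay 124 bp inside the 3′ end of alp16 and 118 bp past the 3′ end of SPCC306.11, an uncharacterized convergent gene whose end overlaps that of alp16 by 7 bp. More of the peak covered SPCC306.11 (1414 bp, 66.0%) than alp16 (737 bp, 34.4%). The summit was also inside the non-coding RNA gene SPNCRNA.6848. This was the only peak of the 5 whose summit was nearer to the 3′ end of a neighbouring coding gene than to either end of the listed gene, by a margin of a few bases. A separate 1.77-fold peak lay 1866 bp past the 3′ end of alp16, with its summit 17 bp from the start of SPCC306.11.

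Sad1 is the SUN-domain protein that anchors the spindle pole body to the nuclear envelope. The sad1 summit had 2280 ChIP fragments (2187 to 2376) against a background of 449, a fold of 5.07 (4.87 to 5.28) and rank 31 of 664. The whole peak (II, 2304015 to 2305971; 1957 bp wide) lay inside the gene. Its summit was 852 bp from the annotated start, at 29.4% of the gene, and 2043 bp from its 3′ end. No other annotated gene came within 500 bp. The right part of the peak reached cdm1, a short coding gene inside sad1 on the other strand, whose 3′ end is 1073 bp from the summit. The klp5 and alp16 summits, in contrast, each lay close to the ends of 2 coding genes.

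Set among peaks at like positions, the 3 strong peaks were high in their classes. The 10 genes were grouped with these peaks known, so the ranks are a description and nothing is read from them. Summits with 3′ ends of coding genes on both strands within 500 bp made up 26.2% of peaks (174), with a median of 1.61-fold, and by fold klp5 was 5 and alp16 was 6 among them. Summits inside a coding gene and more than 500 bp from any coding gene end made up 9.79% (65 peaks), with a median of 1.29-fold, and the sad1 peak was the highest of these 65. Of the 531 peaks near a coding gene, 56.9% were near 2 or more, as were those at klp5, alp16 and klp8, so an unclear owner is common in this list.

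**Figure D2:**
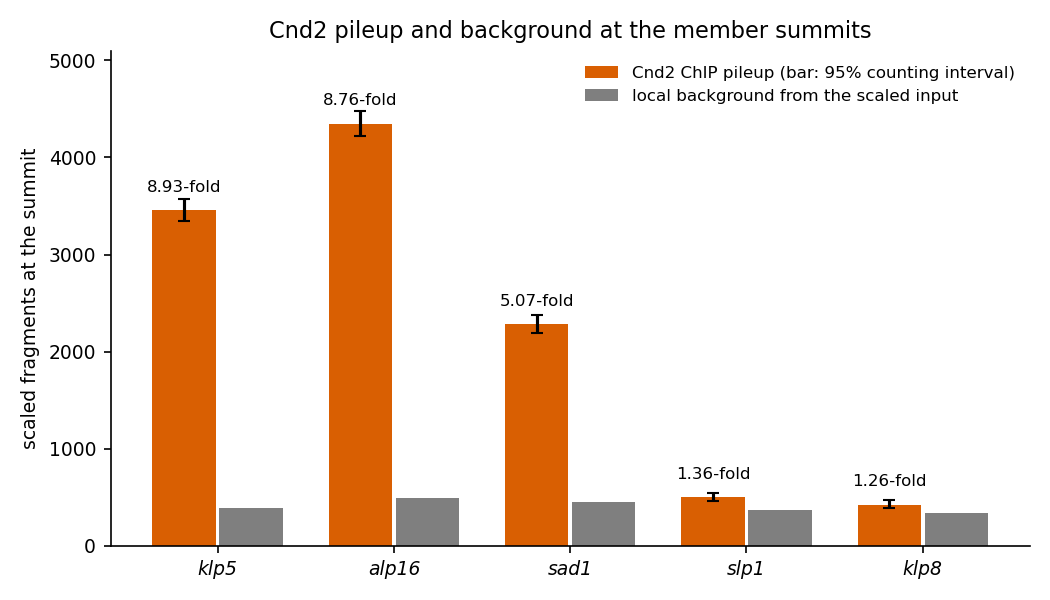
Fragments piled up at the summit in the Cnd2 ChIP (orange, left bar of each pair, with its 95% counting interval) and the local background from the scaled input (grey), in scaled fragments, for the 5 genes with a peak. Pileups were 3457 at klp5, 4350 at alp16 and 2280 at sad1, and 500 and 424 at slp1 and klp8, while backgrounds were between 337 and 495.

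The anaphase activator slp1 had a weak peak before its start. The summit had 500 ChIP fragments (457 to 546) against a background of 368, a fold of 1.36 (1.24 to 1.48) and rank 504 of 664. It lay 253 bp before the annotated 5′ end, and the 323 bp peak (I, 997702 to 998024) did not overlap slp1. The nearest annotated ends of other genes were those of the non-coding RNA genes SPNCRNA.163, SPNCRNA.2439 and SPNCRNA.2440, at 157, 181 and 229 bp. The divergent neighbour eng1, the septum glucanase gene, starts a gap of 996 bp from slp1 and carries a peak of 13.3-fold whose summit is 223 bp past its own 3′ end and 4949 bp from slp1. The peaks of slp1 and eng1 were separated by 1208 bp. With the genome mean as the lowest background allowed, the slp1 fold was 1.16.

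At the other mitotic regulators no summit was within 500 bp, and the distances to the nearest differed widely. The forkhead gene fkh2 was the closest to the limit. The nearest summit lay 907 bp past its 3′ end at 1.22-fold (rank 611), inside the ribosomal protein gene rps3 and 85 bp from the 3′ end of ptf2. Of the members inside the limit of 500 bp, slp1 was the farthest from its summit, at 253 bp. Of those outside, fkh2 was the closest, at 907 bp.

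The DASH gene ask1 had its nearest summit 4471 bp past the 3′ end, at 1.60-fold, inside SPNCRNA.1444 and 324 bp from the ribosomal protein gene rpl26. A 2.78-fold peak lay 6499 bp before ask1, next to mgr2. The kinases stood in stretches without peaks. The summit nearest to fin1 was 15709 bp away, at fps1, and that nearest to plo1 was 29247 bp away, in ice2, so that neither had a peak within 10 kb. A gene missing from the list may still carry signal under the caller's limit. At a background equal to the genome mean, 490 fragments or 1.14-fold would have passed the weakest p of the list.

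In all, 5 of the 10 genes were near a summit, beside 15.1% of all 5113 protein-coding genes (774; exact 95% interval 14.2 to 16.2). Among the 2916 genes with lengths in the range of the 10 (1326 to 3386 bp) the share was 16.2%. A summit lay inside 4 of the 10 genes, beside 6.14% of all genes. It was within 500 bp of the gene's own 3′ end at 3 of the 10 (klp5, alp16 and klp8), beside 11.6%, and of its own 5′ end at 1 (slp1), beside 2.74%. A near peak of 5-fold or more was found at 3 of the 10 (klp5, alp16 and sad1), beside 0.724%. The 10 were grouped with these peaks known, so nothing is read from these shares or from the median fold that follows. The median of the 5 peaks was 5.07-fold, beside 1.67 over all protein-coding genes near a summit. It is the value of sad1, and none of the 5 lay between 1.36 and 5.07.

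A convergent coding gene whose 3′ end is within 500 bp of the gene's own was present at 2 of the 10 genes, klp5 and alp16, beside 40.5% of all genes. Both had a summit. Over all genes, 19.4% of those with such a partner were near a summit, beside 12.3% of those without one.

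**Figure D3:**
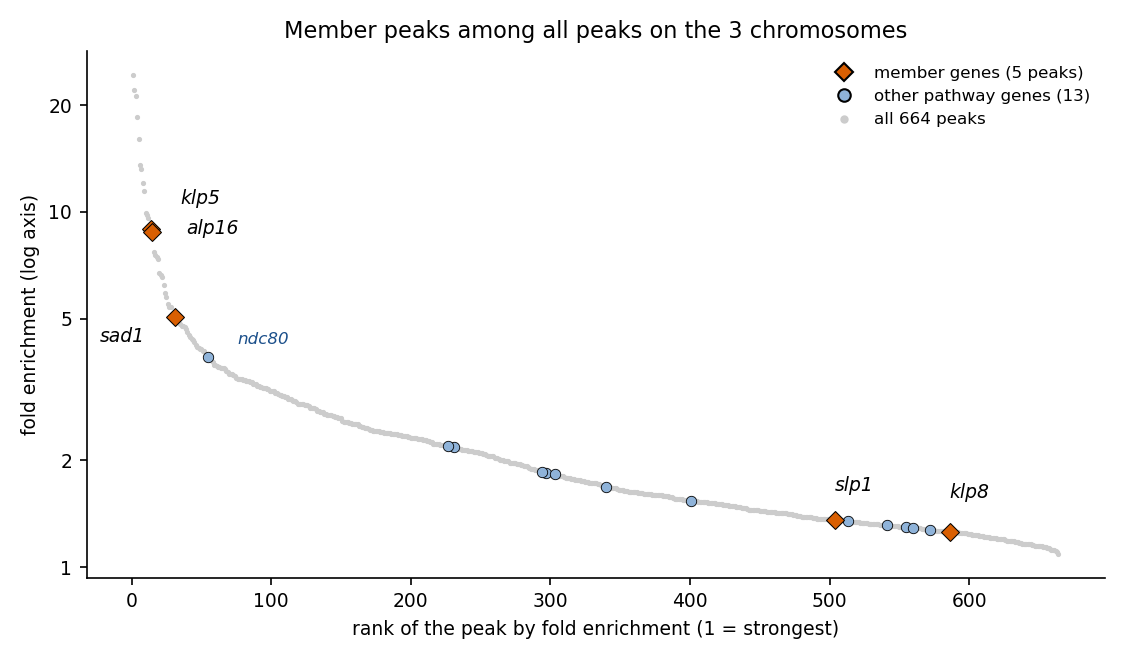
Fold enrichment, on a log axis, against rank for all 664 peaks on the chromosomes (grey), with the peaks of the 5 genes as orange diamonds and those of 13 other spindle and mitotic genes as blue circles. Peaks of klp5 (rank 14), alp16 (rank 15) and sad1 (rank 31) stand at the top, and those of slp1 and klp8 in the lower part, with most of the other mitotic genes below 2-fold.

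The other genes of these pathways were near a summit about as often as any coding gene. Over lists of kinesins, gamma-tubulin complex, spindle pole body, DASH, outer kinetochore, microtubule, mitotic entry, checkpoint, anaphase-promoting complex and mitotic transcription factor genes, 13 of 92 genes other than the 10 had a summit (14.1%, exact interval 7.74 to 23.0). The background was 15.1%. Their median was 1.69-fold, beside 1.67 over all coding genes near a summit, and 3 of the 13 reached 2-fold. With the genome mean as the lowest background allowed, 11 of the 13 still passed the weakest p in the list, and cdc2 and srw1 did not.

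The list counts here and below stand beside 15.1% of all coding genes. The exact interval of each of the 10 pathway lists, counted with its members, held that share, so nothing is read from single lists. The interval of the 10 genes themselves, 18.7 to 81.3%, did not hold it. They were grouped with these peaks known, so nothing is read from that either. None of the 6 other kinesin genes had a summit, and none of the 9 other DASH genes did. For the whole DASH list the interval was 0 to 30.8%. Of the other gamma-tubulin complex genes 1 of 8 had one, mod21, the GCP5 subunit, at 2.18-fold. That summit was 131 bp before mod21 and 116 bp from elo1. Of the 12 other spindle pole genes, cut12 stood at 1.85-fold and cdc11 at 1.31-fold. The cdc11 summit was inside the gene, 359 bp from its 3′ end, and 203 bp from mug33. The outer kinetochore list, as drawn up here, held 11 genes, among them cnp3, a centromere protein gene without a summit. In this list ndc80, whose product binds microtubules, stood at 3.91-fold and mis13 at 1.54-fold. The ndc80 summit was 233 bp before the gene, 142 bp from the coding gene imp2 and inside the serine tRNA gene SPBTRNASER.06. Of 171 tRNA genes, 117 had a summit within 100 bp. Of 10 tubulin and microtubule-associated genes only nda3, beta-tubulin, had a summit, at 1.35-fold and inside the gene.

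Among 11 other genes of mitotic entry, the kinase gene cdc2 stood at 1.30-fold, its cyclin cdc13 at 1.85-fold and cdr1, a kinase that acts on Wee1, at 1.69-fold. All 3 summits lay past the 3′ end of the gene. The cdc13 summit was inside dsh1, the cdr1 summit inside pct1, and the cdc2 summit 48 bp from pht1. Of 6 checkpoint genes only bub1 had a summit, at 1.27-fold and inside rpl2302. Of 16 other genes of the anaphase-promoting complex and anaphase, cut2 (securin) stood at 2.19-fold, with its summit 89 bp from eno101. The other with a summit was srw1, another activator of the complex, at 1.29-fold. The srw1 summit was inside the gene, 648 bp from its 3′ end, and 85 bp from rki1.

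In the list of mitotic transcription factors, as drawn up here, the GATA factor gene ams2 had 3 near summits. The highest was at 1.82-fold and 121 bp past its 3′ end. That summit was inside SPNCRNA.7583 and 51 bp from the coding gene ptc1. The genes sep1 and mbx1, whose products act with Fkh2, had none.

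**Figure D4:**
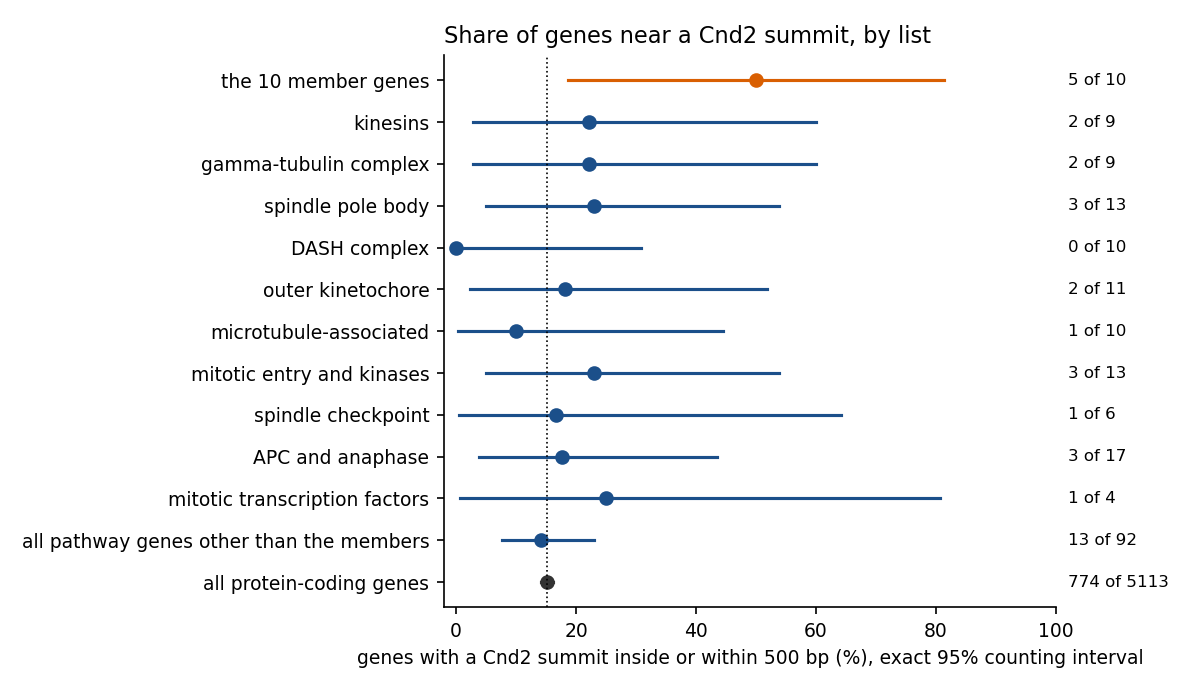
Share of genes with a Cnd2 summit inside or within 500 bp, in percent, for the 10 genes (orange), 10 pathway lists that include them where they belong (blue), the other pathway genes together and all protein-coding genes (black, dotted line). Points are shares and lines exact 95% counting intervals, and the counts stand at the right. The 13 of 92 other pathway genes lie close to the line of all coding genes.

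The promoters of most of the 10 genes held the same short motif. The forkhead motif GTAAACA, searched on both strands from 250 bp before to 50 bp after the annotated start, was found in 8 of the 10 (all but klp8 and alp16), beside 16.5% of 5112 promoters. The 10 hits are shown because they occur in genes with and without a peak. They are written on the strand of the gene with 10 bases on either side, and capitals mark the motif, or TGTTTAC where it lies on the other strand.
klp5, II:1712171-1712197, minus strand, 67 bp before the start: ataatgtaatTGTTTACatcttttatt
klp6, II:535170-535196, minus strand, 35 bp before the start: attttttcatTGTTTACatttcaagct
sad1, II:2303732-2303758, plus strand, 21 bp before the start: tacacttaccGTAAACAcaacaaaact
ask1, II:1563844-1563870, minus strand, 206 bp before the start: gttgaatgttTGTTTACtatggatcat
ask1, II:1563790-1563816, minus strand, 152 bp before the start: actgaggaaaGTAAACAaaactttaaa
ask1, II:1563691-1563717, minus strand, 53 bp before the start: caatttaactTGTTTACtttacgaaac
plo1, I:2164180-2164206, plus strand, 38 bp before the start: gcaaccacttTGTTTACcctcaaaagt
fin1, I:1354135-1354161, plus strand, 73 bp before the start: atggcaacatTGTTTACacttgatgat
slp1, I:997619-997645, minus strand, 3 bp after the start: tgaatttattGTAAACAaatcatctaa
fkh2, II:4242874-4242900, minus strand, 169 bp before the start: gtatcttgatTGTTTACaaaaatataa

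Of these hits 6 lay in the 75 bp before the start. The motif was in 3 of the 5 genes with a summit and in all 5 without one. Over all genes it was in 17.3% of the 774 promoters of genes near a summit (14.7 to 20.2) and in 16.4% of the other 4338 (15.3 to 17.5). When the motif was required on the strand of the gene it was found in 3 of the 10 (sad1, ask1 and slp1), beside 7.24%. Its shorter core TAAACA, on both strands, was in 9 (all but alp16), beside 43.4%. The MBF motif ACGCGT was in 1, klp5, beside 3.25%. A match is a run of letters and does not show that a factor binds there.

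**Figure D5:**
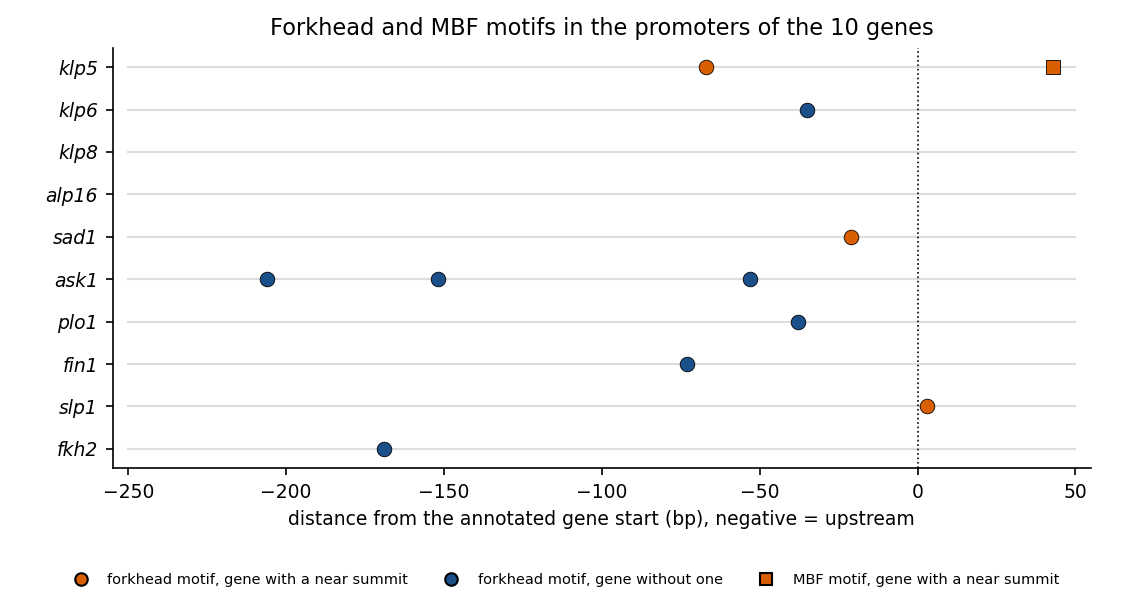
Positions of the forkhead motif (circles) and the MBF motif (square) in the promoters of the 10 genes, in bp from the annotated gene start, with upstream to the left. Orange marks genes with a near Cnd2 summit and blue those without. Forkhead motifs occur in 8 of the 10 genes, and 3 of these 8 have a summit.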

How the data were processed

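Peaks came from the 1 deposited list. BWA 0.7.12, MACS2 2.1.0 and build ASM294v2 are named in the submitters' processing notes. Per the file headers, MACS 2.1.0.20150731 compared paired-end ChIP fragments with the input at a q-value limit of 0.05, keeping 1 fragment per position, with fragments of 208 bp and background windows of 1000 and 10000 bp. No pooling is recorded. Duplicate removal took 34.7% of the ChIP fragments and 10.4% of the input, and can lower tall peaks. Pileup is a coverage signal, counted in fragments at the summit with the larger library scaled down, per the file headers, and fold is the deposited ratio of that pileup to the local background. The deposited −log10 p- and q-values are also the authors'. The header names an effective genome size of 1.87e+09, against 12.6 Mb of chromosomes, so an alternative set the lowest background to the genome mean (429).

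Backgrounds were computed from the deposited pileup and fold with a pseudocount of 1. Counting intervals are exact Poisson intervals of the pileup over that background, taking fragments as independent, and shares have exact (Clopper-Pearson) 95% intervals. Genes, promoters and sequences came from RefSeq ASM294v3, which is not the authors' build. Coordinates were left as given in each. The match was checked at tRNA genes: 117 of 171 had a summit within 100 bp, against 1 to 9 when the genes were shifted by 500 to 5000 bp, and 17 of 19 tRNA genes flanking the 10 genes, 34.2 to 430 kb away and each the best match of the 3 nearest on its side, had one at 9 to 45 bp. The others, on the left of klp5 and the right of ask1, were 695 and 3864 bp from a summit. The gene assignment was tested on simulated data (200 of 200 planted peaks assigned as built).

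The members, lists and motifs were chosen with earlier results of these data known. Named are the 10 genes, genes within 500 bp of their summits, every other listed gene with a summit, and some genes near the summits of those. Genes next to the nearest peaks of members without a summit, snoR54, eng1, vid27, cdm1, cnp3, sep1 and mbx1 were named after their values were seen. A gene and a motif that had been listed are not reported here and are left out of the list counts. The 4 peaks on a sequence named MTR were left out. The software was Python 3.11.15 with numpy 2.4.6 and pandas 2.3.3, scipy 1.17.1 for intervals and matplotlib 3.10.9 for figures.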

Additional observations from a re-analysis of the deposited data

Results flagged for a closer look

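Outside the chromosomes, on a separate sequence named MTR that no comparison used, the highest of 4 peaks had 998 ChIP fragments against a background of 471 scaled input fragments, a fold of 2.11.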

How the results depend on the processing

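The number of the 10 genes near a summit was between 3 and 6 under 7 other settings. It was 3 when peaks below the median fold were dropped and 3 among those with −log10 q of at least 10, where slp1 and klp8 were lost, and 6 within 1000 bp, where fkh2 was added. With the summit required inside the gene, 314 coding genes (6.14%) and 5 of the 92 other pathway genes (5.43%) had one. With peaks below the median fold dropped these were 369 (7.22%) and 6 (6.52%). Of the 5113 coding genes, 615 were near a summit with −log10 q of at least 10, and 965 had a summit within 1000 bp. Of the 92 other pathway genes, 10 and 18 did so at these 2 settings. The median over those of the 10 genes that had a peak was 6.92-fold with the summit inside the gene (4 genes), 6.92 within 250 bp (4 genes) and 3.22 within 1000 bp (6 genes). The forkhead motif was found in 3 of the 10 on the strand of the gene only. The setting with genes of like length was chosen after the data were seen. No paired analysis was possible because there is 1 library in each group. With the background at the genome mean the folds of klp8 and slp1 were 0.988 and 1.16, and the peak of slp1 still passed the weakest p in the list while that of klp8 did not. Other sequencing depths were not tested.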
